A study of Mus musculus with 11 samples.

Results

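The growth hormone and IGF axis of the liver was followed here through 10 genes: the receptor *Ghr*, the transducer *Stat5b*, the feedback genes *Socs2* and *Cish*, the hormone *Igf1*, and the IGF carriers *Igfals*, *Igfbp1*, *Igfbp2*, *Igfbp3* and *Igfbp4*. They were chosen by gene name for their place in the pathway, with earlier results of these data known. Each had 1 row among the 46603 genes of the deposited count table. All 10 were among the 13880 genes with enough reads to be tested. The livers came from 11 male B6.V-Lep ob/JRj mice, which are *ob/ob*, lack leptin and become obese and hyperinsulinemic. The mice were 5 to 6 weeks old when the AMLN diet (high in trans-fat, fructose and cholesterol) began, and ate it for 15 weeks before treatment and throughout treatment. By oral gavage once daily for 8 weeks, mice received vehicle (carboxymethyl cellulose) or 10 mg/kg of INT-767. INT-767 is a synthetic bile acid derivative and agonist of the receptors FXR and TGR5. From the larger groups that the study treated, 4 mice given INT-767 and 7 given vehicle were sequenced. How these were picked is not given in the sources used here. Both groups thus share the leptin deficiency and the diet, and no lean or chow-fed mouse was analysed here. Every mouse had a baseline liver biopsy, and RNA came from unfractionated tissue of the left lateral lobe.

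Growth hormone from the pituitary binds its receptor on hepatocytes, and the kinase JAK2 then phosphorylates STAT5B, which enters the nucleus and switches on *Igf1*, *Igfals*, *Socs2* and *Cish*. The liver makes most of the circulating IGF1, which travels bound to IGF binding proteins, chiefly in a complex with IGFBP3 and the acid-labile subunit encoded by *Igfals*. Of the other carriers, IGFBP1 is transcribed strongly in fasting and repressed by insulin, IGFBP2 is abundant in fetal life and regulated by nutrition, and IGFBP4 binds IGFs until the protease PAPP-A cleaves it.

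Promoter sequence is shown for the 2 STAT5 target genes of the axis with a matching motif, for the insulin-repressed *Igfbp1*, and for *Igf1*. RefSeq windows of 300 bases (GRCm38.p6, 250 bases before to 50 after each annotated start) were found for 9 of the 10 genes, with 14 windows in all, and not for *Socs2*. Searched on both strands, the STAT5 motif TTCNNNGAA occurred in 8.3% of 32851 windows of all genes, and the insulin response motif CAAAACA in 6.28%. The hexamer AGGTCA, the core of many nuclear receptor sites including those of FXR, occurred in 16.3%. The sequences are given 5′ to 3′ from 250 bases before the start to 25 bases after it, and capitals mark the STAT5 motif in *Cish* (chr9:107296409-107296683, plus strand) and in the second *Igfals* window (chr17:24877981-24878255, plus strand), CAAAACA in *Igfbp1* (chr11:7197537-7197811, plus strand) and AGGTCA in *Igf1* (chr10:87860861-87861135, plus strand).
Cish: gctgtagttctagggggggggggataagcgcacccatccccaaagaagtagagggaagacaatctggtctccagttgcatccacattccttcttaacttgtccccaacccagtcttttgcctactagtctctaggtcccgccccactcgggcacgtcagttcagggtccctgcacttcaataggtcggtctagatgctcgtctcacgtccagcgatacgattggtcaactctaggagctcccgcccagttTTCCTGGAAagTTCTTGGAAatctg
Igfals: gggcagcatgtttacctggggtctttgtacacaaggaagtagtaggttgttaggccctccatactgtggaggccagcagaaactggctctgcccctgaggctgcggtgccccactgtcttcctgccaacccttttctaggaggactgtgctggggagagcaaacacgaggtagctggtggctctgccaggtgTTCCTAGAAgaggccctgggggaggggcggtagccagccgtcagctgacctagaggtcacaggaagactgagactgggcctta
Igfbp1: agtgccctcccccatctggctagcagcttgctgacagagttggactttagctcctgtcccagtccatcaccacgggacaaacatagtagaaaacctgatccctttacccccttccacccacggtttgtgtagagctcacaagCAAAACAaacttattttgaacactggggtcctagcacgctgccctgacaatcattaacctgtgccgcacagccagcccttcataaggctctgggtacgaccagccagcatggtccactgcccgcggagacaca
Igf1: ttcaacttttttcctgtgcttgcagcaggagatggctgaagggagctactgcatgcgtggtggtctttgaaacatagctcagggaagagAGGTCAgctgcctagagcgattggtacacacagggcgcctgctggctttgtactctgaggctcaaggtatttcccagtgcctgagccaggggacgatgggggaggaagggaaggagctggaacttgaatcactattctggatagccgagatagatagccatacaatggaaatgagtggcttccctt
*Cish* held 2 STAT5 motifs, beginning 0 and 11 bases after the annotated start, and *Igfals* held 1 in each of 2 of its 3 windows. In *Igfbp1* the insulin response motif began 108 bases before the start, and no other member window held these letters. AGGTCA was found in *Igf1*, 161 bases before the start, in *Igfals* and in *Stat5b*. The inverted repeat of this hexamer around a spacer base, to which FXR binds with RXR, was in 3 of the 32851 windows and in none of the 14. The windows for *Igfbp2*, *Igfbp3*, *Igfbp4* and *Ghr* held none of these letters. Such matches describe the letters only and are not evidence of binding.

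Between 7966963 and 15295230 reads were counted on genes per vehicle mouse, and between 7381211 and 16022459 per INT-767-treated mouse. Levels are given as CPM, read counts scaled to library size with TMM factors, and the groups were compared by edgeR's quasi-likelihood test with Benjamini-Hochberg adjustment over all 13880 genes, a gene being called at an adjusted *p* under 0.05. For each member an exact Mann-Whitney test (two-sided) was run on the CPM values, and its smallest attainable *p* with these group sizes is 0.00606. The *p*-values measure the spread between these mice. The libraries were not evenly spread within their groups. On the leading axis of variation within groups, which held 58.8% of the variance of log2 CPM around the group means, vehicle mice 1 (score 70.6) and 7 (46.8) and INT-767 mice 4 (59.5) and 2 (24.7) lay on one side, and vehicle mice 3 to 6 (-38.0 to -23.6) and INT-767 mice 1 (-49.9) and 3 (-34.3) on the other.

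INT-767-treated livers had higher *Igf1* and *Igfbp2* RNA than vehicle livers, and no gene of the axis was lower at the threshold. Thus 2 of the 10 genes were called higher and 8 were not called, where 9.72% of all tested genes were called, 5.04% higher and 4.68% lower. The share of members called higher was above that background, but the members are few and were measured in the same mice. They were also chosen with earlier results of these data known, so no conclusion is drawn from this share. The gene lists set beside the background further on were chosen in the same way. All 4 INT-767 values lay above all 7 vehicle values for *Igfbp2* and *Igfbp4*, a separation seen in 3.87% of all tested genes (3.65% had the reverse order, 7.51% either), and no member lay wholly below. At an unadjusted edgeR *p* under 0.05, 5 members were higher and 1 lower, against 17.4% and 15.6% of all tested genes (32.9% in either direction). The median log2 fold change was 0.48 over the 10 genes and -0.01 over all tested genes, and 8 of the 10 estimates were above 0.

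**Figure D1:**
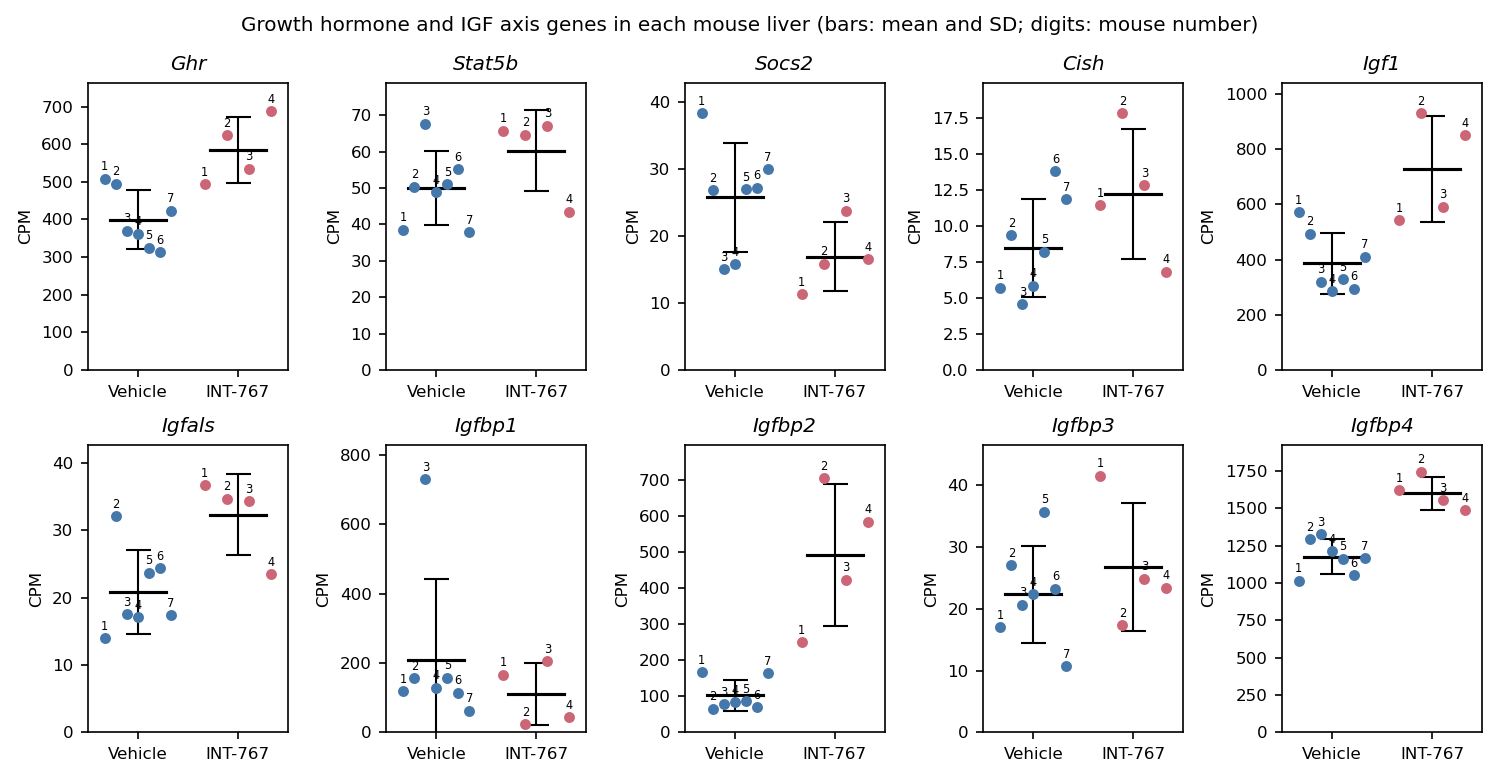
Level of each of the 10 genes in each mouse (CPM, linear axis from 0), for vehicle (blue, n = 7) and INT-767 (red, n = 4). Points are mice with their number, horizontal lines are means and bars are SD (the lower end of the vehicle *Igfbp1* bar falls below 0 and is not drawn). The groups separate for *Igfbp2* and *Igfbp4* and overlap for the other genes, and vehicle mouse 3 stands apart at 730 CPM for *Igfbp1*.

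The receptor was abundant in all livers. *Ghr* (chr15:3317760-3583492, minus strand) ran from 313 to 508 CPM with vehicle, with a median of 370 CPM. The INT-767-treated mice 1 to 4 had 494, 624, 535 and 689 CPM. Mice 2, 3 and 4 were above every vehicle mouse, while mouse 1 lay just under vehicle mice 1 and 2, so that the groups overlapped. The difference of 0.55 ± 0.17 on the log2 scale (SE) missed the threshold (399.5 ± 78.5 against 586 ± 87.5 CPM, SD, n = 7 and 4, edgeR adjusted *p* = 0.0611, exact Mann-Whitney *p* = 0.0242). It passed when vehicle mouse 1 or INT-767 mouse 1 was left out (adjusted *p* = 0.0270 and 0.0485). With an offset for the libraries' trends on GC content and length, the log2 fold change was 0.32 (adjusted *p* = 0.104).

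*Stat5b*, the main STAT5 form of liver, had 37.9 to 67.7 CPM with vehicle (median 50.4 CPM). The 4 INT-767 values were 65.8, 64.7, 67.2 and 43.5 CPM. Mice 1 to 3 were grouped near the top of the vehicle range, and mouse 4 lay well below them, inside it. The log2 fold change was 0.27 ± 0.18 (SE, edgeR adjusted *p* = 0.297), and with the GC content and length offset it was 0.60 with adjusted *p* = 0.0137. Of the gene's 75-base transcript windows, 6.99% are shared with other genes, mostly with its neighbor *Stat5a*. *Stat5a* itself had a log2 fold change of -0.64 ± 0.34 (SE, adjusted *p* = 0.198), and the kinase gene *Jak2* one of -0.08 ± 0.13 (SE, adjusted *p* = 0.669).

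The feedback genes *Socs2* and *Cish*, both targets of STAT5 whose products restrain the receptor, pointed in opposite directions and neither was called. *Socs2* lay between 15.1 and 38.4 CPM with vehicle (median 27.0 CPM) and at 11.3, 15.9, 23.8 and 16.6 CPM with INT-767. Only INT-767 mouse 1 was below every vehicle mouse. Its log2 fold change of -0.62 ± 0.27 (SE) had an adjusted *p* of 0.139 (exact Mann-Whitney *p* = 0.164). *Cish* lay between 4.57 and 13.8 CPM with vehicle (median 8.21 CPM) and at 11.4, 17.8, 12.8 and 6.82 CPM with INT-767. Mouse 2 alone exceeded the vehicle range. The log2 fold change was 0.51 ± 0.32 (SE, edgeR adjusted *p* = 0.273), and 11.5% of the exon bases of *Cish* face exons of predicted genes on the opposite strand, whose reads cannot be told apart unless strand was used in counting. Without INT-767 mouse 2 the log2 fold change of *Cish* was 0.26. As a description, the ratio of *Cish* to *Socs2* CPM ran from 0.149 to 0.506 with vehicle and from 0.412 to 1.12 with INT-767.

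*Igf1* (chr10:87858265-87937042, plus strand) was the hormone gene of the axis and was called higher. Vehicle mice had between 284 and 571 CPM, with a median of 330 CPM. INT-767-treated mice 1 to 4 had 542, 932, 591 and 850 CPM. Mice 2, 3 and 4 exceeded all vehicle mice, and mouse 1 exceeded all but vehicle mouse 1. The mean was 386 ± 110 CPM with vehicle and 729 ± 191 CPM with INT-767 (SD, n = 7 and 4), a 1.89-fold difference (log2 0.92 ± 0.23, SE) with an edgeR adjusted *p* of 0.0296 and an exact Mann-Whitney *p* of 0.0121. The call depended on which mice were included. With 1 mouse left out at a time it held in 5 of 11 fits, and without vehicle mouse 3, 4, 5 or 6 or INT-767 mouse 2 or 4 the adjusted *p* was between 0.0556 and 0.127, with log2 fold changes from 0.76 to 0.87. With INT-767 mouse 2 left out the value was at its lowest.

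The circulating carrier complex of IGF1 gave smaller differences. *Igfals* had 13.9 to 32.1 CPM with vehicle (median 17.6 CPM) and 36.7, 34.7, 34.4 and 23.5 CPM with INT-767. The first 3 of these INT-767 mice were above every vehicle mouse, and mouse 4 was not. The log2 fold change of 0.62 ± 0.22 (SE) had an edgeR adjusted *p* of 0.0825 and passed the threshold without vehicle mouse 2 (adjusted *p* = 0.0401). *Igfbp3*, the partner of *Igfals* in the complex, had 10.7 to 35.8 CPM with vehicle (median 22.3 CPM) and 41.6, 17.4, 24.9 and 23.5 CPM with INT-767. Only mouse 1 left the vehicle range, and without it the log2 fold change of 0.26 ± 0.30 (SE, adjusted *p* = 0.532) became -0.026.

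*Igfbp2* (chr1:72824503-72852474, plus strand) showed the largest difference of the 10 genes. With vehicle it ran from 65.9 to 168 CPM, with a median of 83.2 CPM. With INT-767 the 4 mice had 251, 705, 424 and 584 CPM. Every treated mouse was above the highest vehicle mouse, and mouse 1 was the lowest of them. The means of 102 ± 44.0 and 491 ± 197 CPM (SD, n = 7 and 4) differed 4.80-fold, with a log2 fold change of 2.26 ± 0.33 (SE) and an edgeR adjusted *p* of 0.00329. The exact Mann-Whitney *p* was 0.00606, the smallest possible, and the gene ranked 47 of 13880 by edgeR *p*. In all 11 fits that left out 1 mouse it was called, with log2 fold changes from 2.02 to 2.48.

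*Igfbp4* (chr11:99041244-99054392, plus strand) was the most evenly expressed carrier. It had 1016 to 1328 CPM with vehicle, with a median of 1168 CPM, and 1621, 1746, 1556 and 1488 CPM with INT-767. The groups did not overlap, and the coefficient of variation between mice was 9.77% with vehicle and 6.86% with INT-767. The log2 fold change of 0.44 ± 0.13 (SE) nevertheless had an edgeR adjusted *p* of 0.0538 and was not called, with an exact Mann-Whitney *p* of 0.00606. DESeq2 gave an adjusted *p* of 0.000777, and without vehicle mouse 1 edgeR gave 0.0454.

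*Igfbp1* (chr11:7197782-7202546, plus strand) lies beside *Igfbp3* (chr11:7206086-7213923, minus strand) and was the most variable member. Vehicle mice ran from 62.8 to 730 CPM with a median of 129 CPM, and the INT-767 mice had 166, 24.2, 205 and 43.1 CPM. Vehicle mouse 3 was far above all others, and INT-767 mice 2 and 4 were below every vehicle mouse while mice 1 and 3 were above the vehicle median. The log2 fold change was -0.94 ± 0.71 (SE, edgeR adjusted *p* = 0.358), and without vehicle mouse 3 it was -0.17. The coefficient of variation was 110% with vehicle and 81.7% with INT-767.

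Divided by exon length, the carriers made up very unequal parts of the message. In CPM per kilobase of exon, the vehicle medians ran from *Igfbp4* (264) through *Igfbp1* (84.6), *Igfbp2* (45.1), *Ghr* (40.9), *Igf1* (33.3), *Stat5b* (9.09), *Igfbp3* (7.14), *Igfals* (5.55) and *Socs2* (2.84) to *Cish* (1.28). The ranges over vehicle mice overlapped between neighbors throughout this order, except between *Igf1* and *Stat5b* and between *Igfals* and *Socs2*, and *Igfbp4* overlapped *Igfbp1* through vehicle mouse 3 alone. With INT-767 the median of *Igfbp2* was 273 and stood second after *Igfbp4* (360), followed by *Igf1* (72.8). The exon length counts every annotated exon, and with the longest transcript as length *Ghr* came second with vehicle.

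Summed per length over *Igfbp1* to *Igfbp7*, binding-protein RNA was 624 ± 152 CPM per kilobase with vehicle and 832 ± 79.3 with INT-767 (SD, n = 7 and 4), and the groups overlapped through vehicle mouse 3 at 963. The share held by *Igfbp2* was 9.25% ± 4.36 with vehicle and 31.4% ± 10.8 with INT-767 (SD). It ran from 4.46% to 16.1% over vehicle mice and from 19.0% to 42.9% over treated mice, without overlap. The share of *Igfbp4* was 43.9% in both groups (SD 6.72 and 5.30), that of *Igfbp7* was 25.8% ± 6.65 and 14.3% ± 3.94, and that of *Igfbp1* was 19.4% ± 13.9 and 8.94% ± 7.40 (SD). The *Igfbp7* share overlapped between groups (13.7% to 34.6% with vehicle, 10.1% to 18.3% with INT-767). A share also falls when another gene raises the sum, and *Igfbp7* itself was not called. The ratio of *Igf1* to the summed binding proteins ran from 0.0335 to 0.102 with vehicle and from 0.0684 to 0.106 with INT-767, with overlap.

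**Figure D2:**
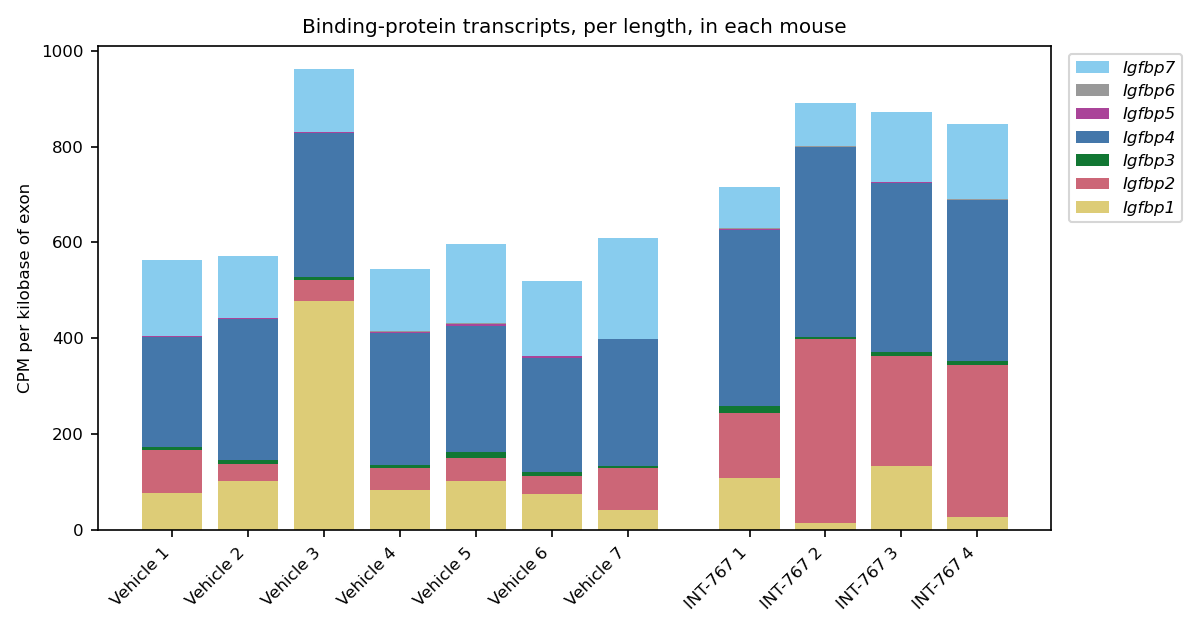
Stacked CPM per kilobase of exon of the 7 binding-protein genes in each mouse (bars from 0, 1 color per gene; *Igfbp3*, *Igfbp5* and *Igfbp6* are thin or not visible). The *Igfbp2* layer holds 4.46% to 16.1% of a vehicle bar and 19.0% to 42.9% of an INT-767 bar, and vehicle mouse 3 has a large *Igfbp1* layer (49.7%).

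Of 37 further genes of the pathway, 31 were tested, of which 0 were called higher and 2 lower, with 11 at an unadjusted edgeR *p* under 0.05, 23 estimates below 0 and a median log2 fold change of -0.32. The counts called and at an unadjusted *p* under 0.05 lay near the background of 5.04% higher, 4.68% lower and 32.9%. Over all 13880 tested genes, 7028 estimates were below 0 and the median log2 fold change was -0.01. *Sirpa*, an inhibitory membrane protein that is phosphorylated on growth hormone stimulation and abundant in macrophages, fell by 1.09 ± 0.24 on the log2 scale (SE, edgeR adjusted *p* = 0.0191). It had 61.9 to 117 CPM with vehicle and 49.2, 25.4, 57.2 and 34.8 CPM with INT-767, without overlap, and was not called without INT-767 mouse 2 (adjusted *p* = 0.0790). *Tox*, a transcription factor listed among growth hormone-responsive genes, fell by 1.12 ± 0.28 (SE, adjusted *p* = 0.0283), a call that held in 4 of the 11 fits that left out 1 mouse and was lost without vehicle mouse 3, 4, 5 or 6 or INT-767 mouse 1, 2 or 4 (adjusted *p* between 0.0511 and 0.114). Growth hormone itself (*Gh*) had 0 counts in all 11 mice, which at the shallowest library allows up to 0.422 CPM (3 counts, counting error only).

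At the receptor level, the IGF1 receptor *Igf1r* was scarce, with 3.69 ± 2.70 CPM with vehicle and 1.11 ± 1.02 CPM with INT-767 (SD, n = 7 and 4, edgeR adjusted *p* = 0.119). The clearance receptor *Igf2r* had a log2 fold change of -0.70 ± 0.24 and the insulin receptor *Insr* one of -0.27 ± 0.21 (SE), neither called (adjusted *p* = 0.0750 and 0.366). The prolactin receptor *Prlr*, a relative of *Ghr*, had 45.9 ± 16.6 and 75.3 ± 14.7 CPM (SD, adjusted *p* = 0.0753). *Stc2*, which encodes an inhibitor of the IGFBP4 protease PAPP-A, had a log2 fold change of -1.06 ± 0.38 (SE, adjusted *p* = 0.0840), and *Pappa* itself reached at most 1.45 CPM in a vehicle mouse. *Cux2*, a female-biased transcription factor, had 0.127 to 1.98 CPM with vehicle, 12.1 CPM in INT-767 mouse 1 and between 0.375 and 2.96 CPM in the other 3 treated mice. The groups overlapped, and the log2 fold change of 2.12 ± 0.71 (SE) was not called (adjusted *p* = 0.0715).

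**Figure D3:**
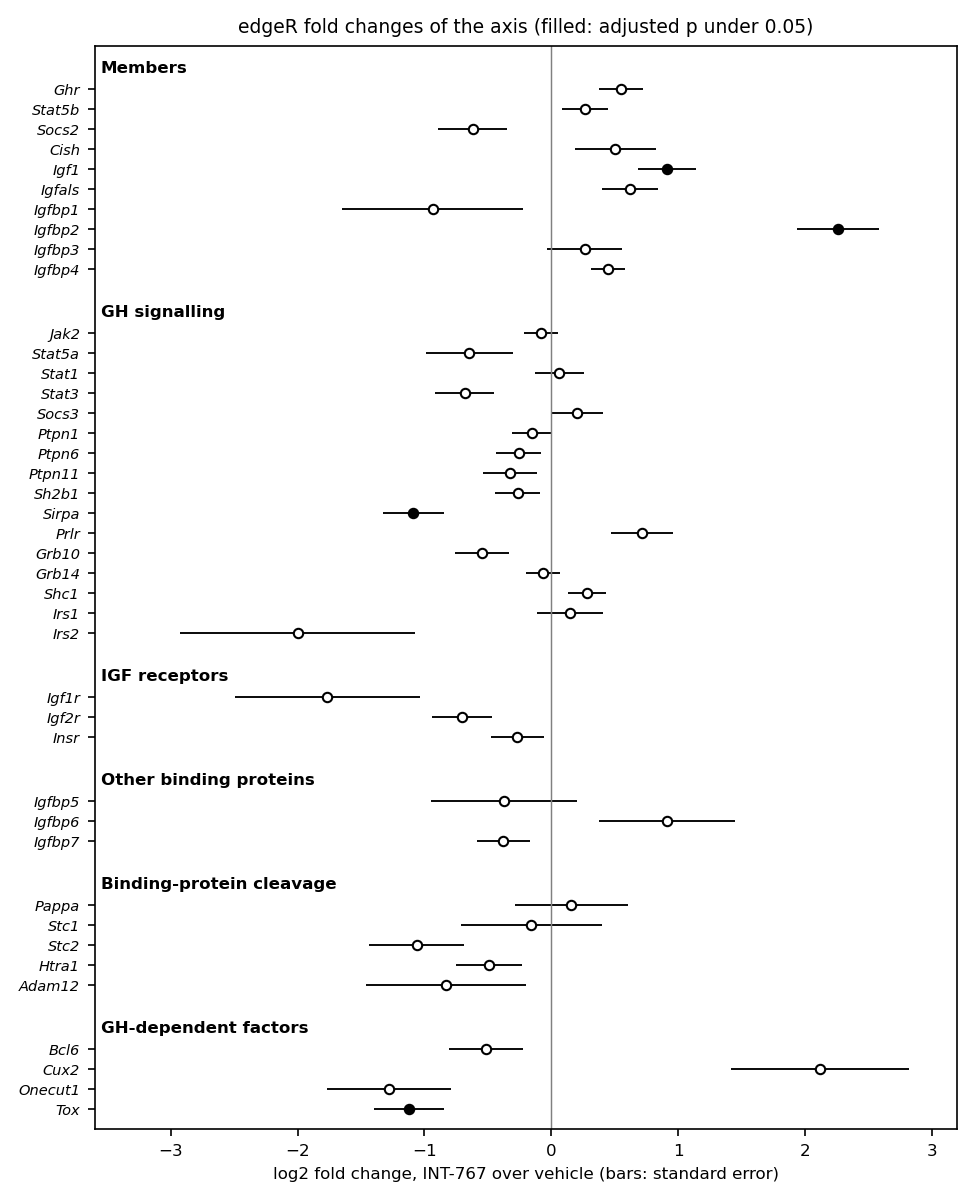
log2 fold change of INT-767 over vehicle with its standard error for the 10 members and the 31 tested genes of the rest of the pathway, by role (x axis, log2 scale; edgeR, filled points have an adjusted *p* under 0.05). The filled points are *Igf1* (0.92), *Igfbp2* (2.26), *Sirpa* (-1.09) and *Tox* (-1.12).

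The liver expression of many sex-biased genes follows the sex-dependent rhythm of growth hormone. Of 24 male-biased genes, 17 were tested, with 2 called higher and 4 lower and a median log2 fold change of -0.11, beside 5.04% higher and 4.68% lower over all tested genes. *Elovl3*, a fatty acid elongase, rose by 1.76 ± 0.41, and *Mup21*, a major urinary protein, by 1.13 ± 0.24 (log2, SE, edgeR adjusted *p* = 0.0224 and 0.0148). *Serpina1e*, an antitrypsin, and *Cyp4a12a*, a fatty acid hydroxylase, had log2 fold changes of -2.79 each, the complement gene *C6* one of -1.63 and *Egfr* one of -1.25 (adjusted *p* = 0.00449, 0.0204, 0.00403 and 0.0143). Reads of *Cyp4a12a*, *Serpina1e* and *Mup21* are uncertain, since 40.8%, 19.7% and 10.3% of their 75-base windows occur in another gene. Without INT-767 mouse 2, *Elovl3*, *Mup21* and *Egfr* were not called (adjusted *p* = 0.116, 0.0519 and 0.0697), nor was *Elovl3* without vehicle mouse 6 (0.0513) or with limma-voom (0.0526). With the GC content and length offset the log2 fold change of *Mup21* was 0.41 and the call was lost (adjusted *p* = 0.436), and 1 male-biased gene was called higher and 6 lower. Of 22 female-biased genes, 14 were tested, with 2 called higher and 0 lower, which became 1 and 1 with library size only or upper-quartile factors, 0 and 1 with at least 10 counts in every mouse, and 4 and 2 with DESeq2. *Acot3*, an acyl-CoA thioesterase, rose by 1.11 ± 0.31 (log2, SE, edgeR adjusted *p* = 0.0427), and 18.1% of its 75-base windows occur in another gene. Its call held in 4 of the 11 fits that left out 1 mouse and was lost without vehicle mouse 3, 4, 5 or 6 or INT-767 mouse 2, 3 or 4 (adjusted *p* between 0.0695 and 0.165). It was also lost with library size only, with upper-quartile factors and with no filter or a stricter one (adjusted *p* between 0.0531 and 0.0815). *Cyp17a1*, the most abundant of the female-biased list, was not called (log2 fold change 1.30 ± 0.44, SE, adjusted *p* = 0.0735).

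Among 8 genes that insulin represses in liver, as it does *Igfbp1*, 2 were called higher and 0 lower, beside 5.04% and 4.68% over all tested genes. *G6pc*, the last enzyme of glucose release, had a log2 fold change of 1.21 ± 0.30 and *Ppargc1a*, a coactivator of gluconeogenic genes, one of 0.93 ± 0.15 (SE, edgeR adjusted *p* = 0.0298 and 0.00496). INT-767 mouse 3 had 156 CPM of *G6pc*, below the whole vehicle range of 161 to 275 CPM, whereas the other 3 treated mice had 439, 623 and 679 CPM. The *G6pc* call was lost without vehicle mouse 2, 4, 5 or 6 or INT-767 mouse 2 or 4 (adjusted *p* between 0.0509 and 0.130). It was also lost with library size only (0.0538), with limma-voom (0.0721) and with limma-voom with sample weights, where the log2 fold change was 0.51 (adjusted *p* = 0.251). The number called higher among the 8 was 4 with DESeq2, with the offset or without vehicle mouse 1, and 1 without vehicle mouse 2, 4, 5 or 6 or INT-767 mouse 2. *Pck1*, the most abundant of the 8, had a log2 fold change of -0.03 ± 0.42 (SE, adjusted *p* = 0.962). *Irs2*, an insulin receptor substrate, had the lowest estimate of the 8, -2.00 ± 0.92 (SE, adjusted *p* = 0.151), at 13.9 ± 14.7 CPM with vehicle (SD, n = 7) and 3.53 ± 3.38 CPM with INT-767 (SD, n = 4), with overlapping groups.

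Within groups, the members did not vary alike. After each group's mean was taken away, *Ghr* and *Igf1* varied together over the 11 mice (Pearson's r 0.92), whereas *Igfbp2* varied against *Igfbp3* (r -0.83). *Igf1*, *Igfbp2* and *Ghr* were high in the libraries on the positive side of the leading axis (r 0.86, 0.85 and 0.85 with its score), and *Stat5b*, *Igfbp3* and *Igfbp1* were low there (r -0.81, -0.71 and -0.62). Within each group, the same libraries had a larger share of reads on mitochondrial genes. With vehicle it was 6.63% and 5.37% in mice 1 and 7, against 3.89% to 4.99% in the others. With INT-767 it was 7.80% and 7.53% in mice 2 and 4, against 6.11% and 5.35% in mice 1 and 3. The range of this share lay higher with INT-767 than with vehicle, with overlap. These correlations are descriptions over points that each stand for 1 library, and the part of library quality in the members' levels was not tested. Genes of higher GC content tended to lower fold changes (rho -0.30 by Spearman, across 13835 genes, which are not independent). *Igf1* has a GC content of 38.0% and *Igfbp2* of 62.1%, and with the GC content and length offset their log2 fold changes were 0.74 and 2.14, both called (adjusted *p* = 0.0177 and 0.000692).

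**Figure D4:**
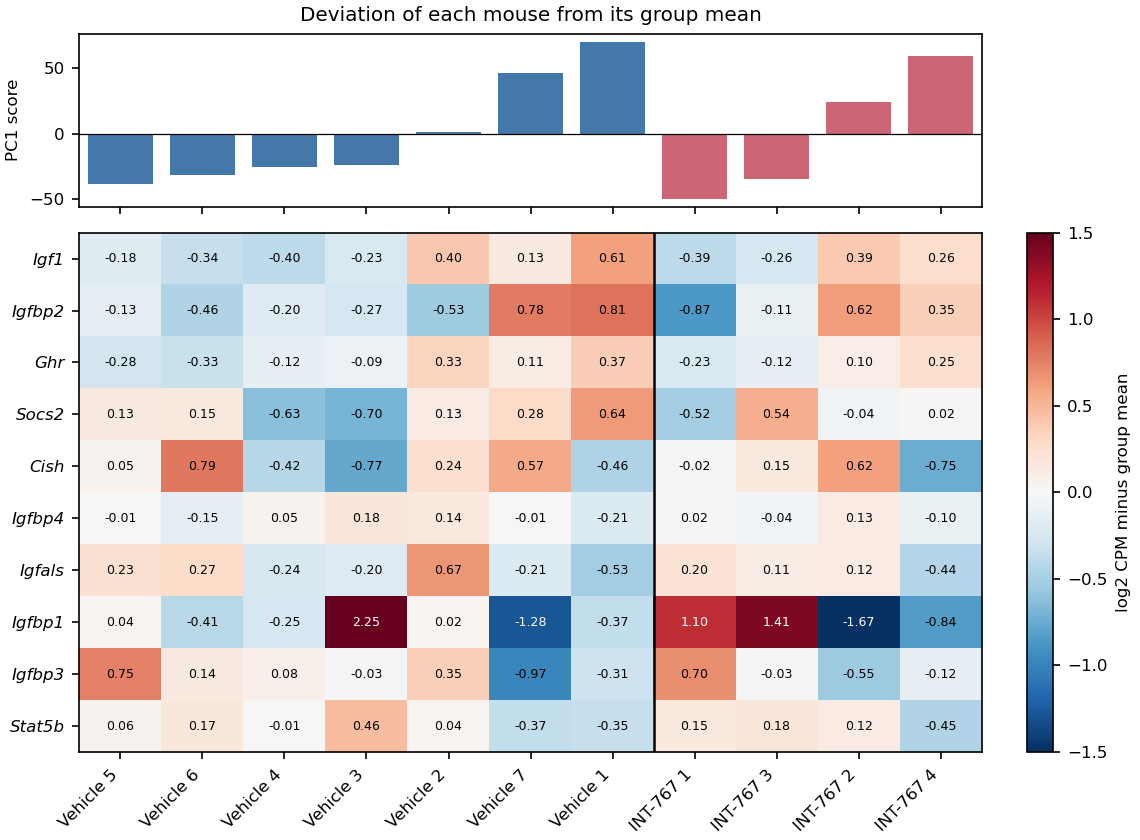
Lower panel, log2 CPM of each gene in each mouse minus its group mean (values printed, color saturated at the ends of its scale); upper panel, score of each library on the leading axis of within-group variation (arbitrary units; vehicle blue, INT-767 red). Mice are ordered by that score within each group, and genes by their correlation with it, from *Igf1* (r 0.86) at the top to *Stat5b* (r -0.81) at the bottom.

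The genes most like 3 of the members within groups, out of 10251 with a mean of at least 5 CPM, were taken by the Pearson correlation of these deviations over the 11 mice. For *Igf1* they included *Hsd17b6* (r 0.99), *Tmem135*, *Trappc13* and *Hfe* (r 0.96 to 0.97). *Hsd17b6* was also called higher with INT-767, with 133 CPM on average with vehicle and 637 CPM with INT-767. For *Igfbp1* they were *Brd9* (r 0.98), *Srrm4*, *Plk3*, *Krt18* and *Baiap2l1* (r 0.92 to 0.96), and for *Igfbp2* they were *H2-Q1* (r 0.94), *Imp3*, *Gng11*, *Mynn* and *Cdc16* (r 0.92 to 0.93).

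Markers of the cells in the tissue were read beside these results, since in whole liver fewer cells of a type and less RNA per cell cannot be told apart. Hepatocyte markers were strongly expressed in every liver, led by *Alb*. Their summed level over 7 genes was 72882 ± 7948 CPM with vehicle and 105997 ± 16769 CPM with INT-767 (SD, n = 7 and 4), and overlapped through INT-767 mouse 4. None of the 7 was called, although 4 had an unadjusted edgeR *p* under 0.05 (32.9% over all tested genes) and the median log2 fold change was 0.52, near that of the 10 members. The part of hepatocyte RNA in the higher *Igf1* was not tested. Of 10 stellate cell and fibroblast markers, led by *Dcn*, 2, *Col1a1* and *Pdgfrb*, were called lower, beside 4.68% over all tested genes (summed 1288 ± 299 and 1043 ± 360 CPM). The list went both ways, with 5 estimates above 0, 5 below and a median log2 fold change of -0.21. The calls of *Col1a1* and *Pdgfrb* each held in 5 of the 11 fits that left out 1 mouse. Of 9 macrophage markers, led by *Cd5l*, 2, *Cd68* and *Csf1r*, were also called lower, in all 11 such fits too (summed 614 ± 79.3 and 455 ± 198 CPM). The macrophage sums overlapped through INT-767 mouse 4. It had 747 CPM, inside the vehicle range of 554 to 774 CPM, while INT-767 mice 1 to 3 had 378, 389 and 306 CPM. Among the 9, 6 had an unadjusted edgeR *p* under 0.05 (32.9% over all tested genes). Their median log2 fold change was -0.93, with 8 estimates below 0 and 1 above. The part of macrophage RNA in the lower *Sirpa* was not tested. None of 7 endothelial (led by *Stab2*), 5 cholangiocyte (*Spp1*), 5 lymphocyte (*Ms4a1*) or 2 tested neutrophil (*S100a9*) markers was called, of which 2, 3, 1 and 0 had an unadjusted edgeR *p* under 0.05, and no marker gene was at 0 in all mice.

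**Figure D5:**
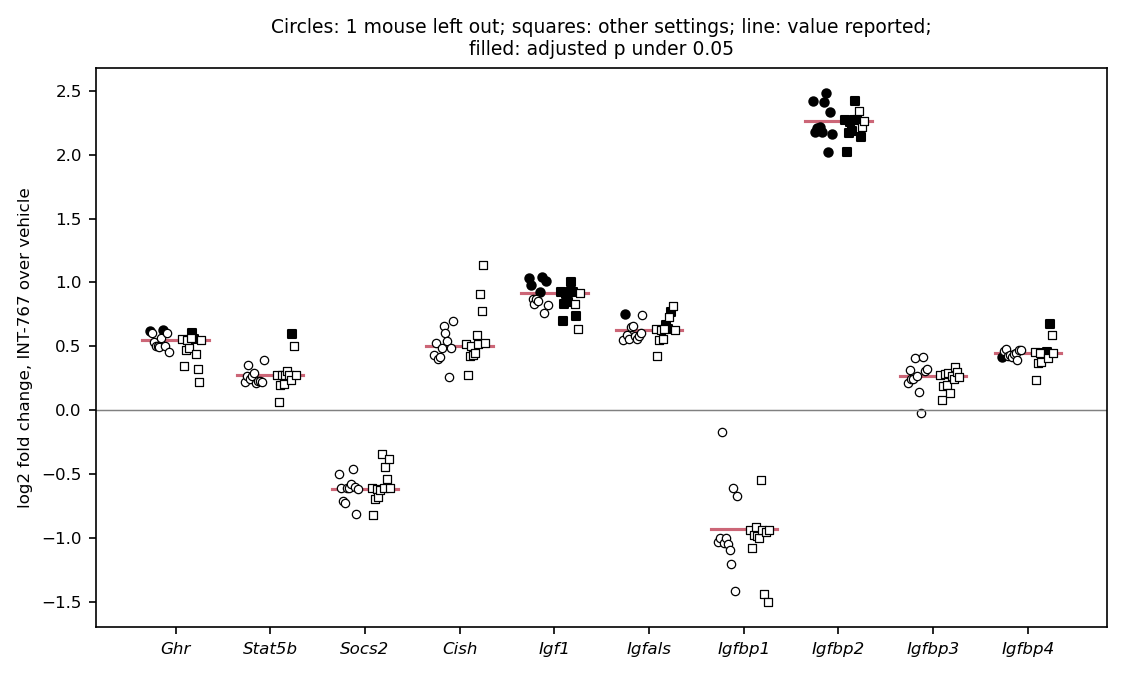
log2 fold change of each member under each alternative (y axis, log2 scale): circles leave out 1 mouse (11 fits), squares are the other settings, the line is the value reported, and filled symbols have an adjusted *p* under 0.05. *Igfbp2* stays between 2.02 and 2.48, and the circles of *Igf1*, from 0.76 to 1.04, are filled in 5 of 11.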

How the data were processed

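The authors deposited 1 table of raw read counts per gene (46603 Ensembl genes, 11 mice), with whole numbers and no normalization. Stranded mRNA libraries were read for 75 cycles and aligned to GRCm38 with STAR, version 2.5.2a with Ensembl release 84 in the study's methods and version 2.4.0 in the submitters' processing notes. Which program counted the reads, and whether by strand, is not given in the sources used here. Each sample is 1 mouse, and groups are those of the labels.

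In R 4.3.3, counts were scaled by TMM factors, filtered by filterByExpr (minimum count 10, minimum total 15) and tested in edgeR 4.0.16 (glmQLFit, robust; glmQLFTest) with treatment as the only term and Benjamini-Hochberg adjustment over 13880 genes. CPM is the count relative to the TMM-scaled library size. The exact Mann-Whitney test enumerated 330 assignments. Coordinates, exon lengths and GC content came from GENCODE M21 (GRCm38), and promoters from RefSeq GRCm38.p6. Alternatives were other scalings and filters, limma-voom (limma 3.58.1) with and without sample weights, DESeq2 1.42.0, a threshold of 0.01, a block for the mouse number, an offset for each library's trends on GC content and length (lowess span 0.3, 13835 genes), the block with the offset, the exact test and leaving out each mouse. On simulated counts with the design of INT-767 against vehicle (13730 genes, 200 with a log2 change of 2), 96% of these were found by edgeR, with 15 further calls. Figures were drawn with matplotlib 3.10.9.

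The members and the gene lists were chosen with earlier results of these data known. Named are all members, any gene of the pathway lists, of the sex-biased and insulin lists the called genes with the largest changes (at most 5) or the most abundant, of each marker list its most abundant gene, and the 5 genes most like *Igf1*, *Igfbp1* and *Igfbp2*. The hepatocyte marker *Tf* was not analysed here. Some genes chosen by this rule are left out of the text.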

Additional observations from a re-analysis of the deposited data

Results flagged for a closer look

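In 2 of 20 groups of values (10 genes, 2 treatments) the highest or lowest mouse lay farther from the next than Dixon's 95% critical value allows, where chance gives about 1 in 20. Vehicle mouse 3 had the highest *Igfbp1* level of its group at 730 CPM, with the next mouse at 158 CPM, so that the gap was 0.857 of the range. INT-767 mouse 4 had the lowest *Stat5b* level of its group at 43.5 CPM, with the next mouse at 64.7 CPM and a gap of 0.895 of the range. The cause of either value was not tested.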

How the results depend on the processing

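Of the 10 members, none changed sign under another scaling, filter, tool or offset, and *Igfbp3* alone changed sign with a mouse left out (-0.026 without INT-767 mouse 1, and up to 0.41 in the other such fits). Members called higher numbered 5 with limma-voom with sample weights, with DESeq2 and with the GC content and length offset, 1 at a threshold of 0.01, and 1 to 4 with 1 mouse left out, and none was called lower in any of these fits. Several members' estimates moved by over 1.5 times. With library size only, log2 fold changes were 0.34 for *Ghr*, 0.07 for *Stat5b*, 0.28 for *Cish*, 0.08 for *Igfbp3* and 0.24 for *Igfbp4*. With sample weights they were -0.34 for *Socs2*, -0.55 for *Igfbp1* and 0.13 for *Igfbp3*, and with the offset 0.77 for *Cish* and 0.68 for *Igfbp4*. Without INT-767 mouse 2 or 3 *Igfbp1* was at -0.61 or -1.42. Of the 31 other pathway genes, 1 was called higher and 4 lower with sample weights, 2 and 6 with DESeq2, 2 higher with the offset, 1 and 6 without vehicle mouse 1, and 0 lower at a threshold of 0.01 or without INT-767 mouse 2. After adjustment over all genes the exact Mann-Whitney test called 0 genes. Over all genes, edgeR called 700 higher and 649 lower. These counts were 331 and 1026 with library size only, which moved the median log2 fold change to -0.22, 1658 and 1221 with sample weights, 1443 and 1368 with DESeq2, and 158 and 87 at a threshold of 0.01. With the offset 1074 were higher. With 1 mouse left out they ran from 164 (without INT-767 mouse 2) to 1906 (without vehicle mouse 1) higher and from 110 to 1370 lower. The labels do not state that the mouse numbers pair the samples. The deviations of same-numbered mice had correlations of -0.69, 0.22, 0.15 and -0.48. The leading axis held 58.8% of the variance of these deviations, so such correlations cannot decide whether the numbers pair mice. With the replicate block edgeR called 0 genes higher and 0 lower, 0 of them members (1347 at an unadjusted *p* under 0.05), and 0 and 0 with the block and the offset together (1682). The causes of these shifts were not tested. Precision was limited by 4 treated mice and by depth for genes near 1 CPM.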
